A study of Mus musculus with 36 samples.

Results

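A set of 10 genes for inflammatory signals and their partners was followed in mouse cells that all lack the histone methyltransferase MLL3. The 10 genes were taken by symbol from the 24284 genes of the FPKM files and by RefSeq transcript from the count files, and every one was found in both. They are the cytokine Il6, the CC chemokines Ccl2, Ccl5 and Ccl7, the CXC chemokines Cxcl1, Cxcl5 and Cxcl12, the interleukin-1 receptor antagonist Il1rn, the inducible cyclooxygenase Ptgs2 and the inflammatory caspase Casp4. RNA was sequenced in 12 libraries from 4 stages, each in cells that were MLL3-/-;MLL4flox/flox (f/f here) and in cells that were MLL3-/-;MLL4-/- (DKO here). The stages were embryonic stem cells (ESC) grown with LIF on irradiated fibroblast feeders, embryoid bodies after 4 days in suspension without LIF (bodies here), immortalised embryonic fibroblasts, and those fibroblasts 20 days after lentiviral Oct4, Sox, Klf4 and c-Myc, with the culture switched to ES medium early in the treatment. Fibroblasts and day-20 cells had 1 library per genotype, and ESC and bodies had 2. No group is wild type, so every genotype comparison is of MLL4 on an MLL3-null background.

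Chemokines are small secreted proteins that attract leukocytes by binding G-protein-coupled receptors. IL-6 signals through its receptor and the shared subunit gp130 (Il6st) to STAT3, and cyclooxygenases turn arachidonic acid into the precursor of the prostaglandins. Fibroblasts are a known source of many of these signals, and many of the genes are induced through NF-kB, C/EBP and AP-1 factors. MLL3 (Kmt2c) and MLL4 (Kmt2d) methylate histone H3 lysine 4 at enhancers.

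The promoter windows of 5 of the genes are shown because the genotype differences described further on turn on these genes. Each is the 250 bases before the RefSeq transcription start in GRCm38.p6, read 5′ to 3′ on the plus strand, and capitals mark matches to a kappa-B motif (GGG, any 3 bases, then TTCC) on either strand. The expression files name mm9, so these coordinates belong to RefSeq and not to those files. The windows are Il6 at chr5:30012864-30013113, Ptgs2 at chr1:150099781-150100030, Casp4 (the first of 2 entries) at chr9:5308599-5308848, Cxcl12 at chr6:117168285-117168534 and Cxcl1 at chr5:90890995-90891244.
Il6: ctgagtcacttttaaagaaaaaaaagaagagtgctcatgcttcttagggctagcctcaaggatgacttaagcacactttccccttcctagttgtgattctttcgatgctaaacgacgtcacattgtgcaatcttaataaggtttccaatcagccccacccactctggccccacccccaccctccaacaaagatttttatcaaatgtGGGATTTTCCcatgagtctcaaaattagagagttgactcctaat
Ptgs2: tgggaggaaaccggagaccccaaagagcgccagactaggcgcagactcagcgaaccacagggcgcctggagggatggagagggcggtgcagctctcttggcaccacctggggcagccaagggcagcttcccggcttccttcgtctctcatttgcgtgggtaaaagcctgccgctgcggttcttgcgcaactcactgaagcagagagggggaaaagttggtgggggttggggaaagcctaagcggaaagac
Casp4: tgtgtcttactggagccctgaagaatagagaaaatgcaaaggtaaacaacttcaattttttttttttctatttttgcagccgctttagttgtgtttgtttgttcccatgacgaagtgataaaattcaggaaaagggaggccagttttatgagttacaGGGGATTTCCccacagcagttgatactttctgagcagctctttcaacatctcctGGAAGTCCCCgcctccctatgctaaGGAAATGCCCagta
Cxcl12: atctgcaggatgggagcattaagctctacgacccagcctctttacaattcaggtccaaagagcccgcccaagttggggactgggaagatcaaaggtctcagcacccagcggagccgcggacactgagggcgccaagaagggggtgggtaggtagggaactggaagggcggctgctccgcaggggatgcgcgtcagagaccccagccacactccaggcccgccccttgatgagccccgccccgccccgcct
Cxcl1: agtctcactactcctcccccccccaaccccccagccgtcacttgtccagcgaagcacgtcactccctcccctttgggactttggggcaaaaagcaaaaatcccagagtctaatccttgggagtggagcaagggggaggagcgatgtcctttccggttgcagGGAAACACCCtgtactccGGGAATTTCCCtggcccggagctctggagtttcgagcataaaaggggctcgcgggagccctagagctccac

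The Il6 window held 1 kappa-B match, GGGATTTTCC, from 44 to 35 bases before the start. It also held matches to the C/EBP letters TTGCNNAA, the CRE letters TGACGT and the AP-1 letters TGANTCA. The Cxcl1 window held 3 kappa-B matches, of which GGGAATTTCC and its reverse-strand partner overlap by all but 1 base, and 1 CRE match. Casp4 held 3 kappa-B matches, the nearest from 14 to 5 bases before the start. Ptgs2 held none, but had the palindromic C/EBP match TTGCGCAA from 69 to 62 bases before the start. Cxcl12 held none of the 4 motifs. Among all 32851 RefSeq windows of this length, 4.65% held a kappa-B match, 9.56% a C/EBP match, 6.47% a CRE match and 6.75% an AP-1 match. Matches to different motifs do not overlap in these windows, and a match is a description of the sequence and not a measured site. Il1rn had 3 entries, 1 of them with a kappa-B match, and no entry was found for Ccl2, Ccl5, Ccl7 and Cxcl5.

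Depth and identity bear on every value below. The reads behind the values numbered 28921512 and 38264157 in f/f and DKO fibroblasts, 25014405 and 23413352 at day 20, and from 11366199 to 23147514 in ESC and bodies. Kmt2d, the gene removed in DKO cells, read 14.4 FPKM in f/f fibroblasts against 23.5 FPKM in those labelled DKO, and 12.9 against 24.8 FPKM at day 20. That runs against the direction of a loss, and a whole-transcript value does not isolate the deleted part, so it checks no label, and fibroblast and day-20 directions rest on the label alone. In the FPKM libraries of ESC and bodies Kmt2d was lower in DKO, at 18.7 against 10.7 and 15.4 against 10.1 FPKM. The 16 fibroblast markers summed to 5539 and 4993 FPKM in fibroblasts and to 15987 and 11609 FPKM at day 20. Single markers differed more: Lum stood at 52.7 and 2 FPKM in fibroblasts and at 168 and 1.75 FPKM at day 20, Thy1 at 3.37 and 0.482 and at 120 and 1.08, and Col1a1 at 1345 and 356 FPKM in fibroblasts. These 3 were lower in the libraries labelled DKO, as were Cxcl12 and Il1rn. Other markers went the other way. Col1a2 stood at 1387 and 1720 FPKM in fibroblasts and 2663 and 3894 FPKM at day 20, and Col3a1 at 362 and 516 and at 3851 and 4606 FPKM. In fibroblasts, but not at day 20, Fn1 (1186 and 1507 FPKM), Fbn1, Twist1 and Prrx1 were also higher in the library labelled DKO. The part of these marker differences in the Cxcl12 and Il1rn results was not tested. The day-20 libraries carry the label iPSC, but their 12 pluripotency markers summed to 46.3 FPKM (f/f) and 17.8 FPKM (labelled DKO). In ESC the sums were 3230 to 4587 FPKM, so the former are called day-20 cells here. Pou5f1, which encodes the delivered factor Oct4, stood at 19.8 and 0.118 FPKM at day 20, and Sox2 at 9.36 and 0.243 FPKM. Nanog (5.49 and 9.68 FPKM) and Klf2 (5.61 and 7.24 FPKM) went the other way. The part of the delivered factors in the day-20 differences was not tested. Leukocyte markers summed to between 5.79 and 8.26 FPKM in the 4 fibroblast and day-20 libraries, with Cd3e and Spi1 listed at 0 in each.

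In fibroblasts, Il6 and Ptgs2 were higher in the library labelled DKO than in f/f, and Cxcl12, Il1rn, Ccl5 and Ccl2 were lower. With 1 library per group there is no replicate check and no test. A gene was called when log2(FPKM + 1) differed by at least 1, a 2-fold step on that scale, and the 95% intervals beside the ratios are exact binomial intervals that cover counting error only. By that rule 2 of the 10 genes were higher and 4 lower, where 2.01% of all 24284 genes were higher and 2.88% lower. Among the 12281 genes with a mean of at least 1 FPKM the shares were 3.72% and 5.17%.

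Il6 stood at 1.94 FPKM in f/f fibroblasts and at 19.5 FPKM in the library labelled DKO, from 61 and 810 reads. The ratio was 10 (95% counting interval 7.73 to 13.2). Ptgs2 stood at 33.5 and 198 FPKM, a ratio of 5.91 (5.72 to 6.11) from 4018 and 31410 reads. These were the members called higher, and Ptgs2 was the most abundant of the 10 genes in the library labelled DKO.

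Cxcl12, the stromal ligand of the receptors CXCR4 and ACKR3, was the most abundant of the 10 genes in f/f fibroblasts at 388 FPKM. It stood at 27.5 FPKM in the library labelled DKO, 14.1-fold lower (13.8 to 14.4). Il1rn, which blocks the IL-1 receptor without activating it, was the next most abundant at 180 FPKM in f/f and stood at 19.3 FPKM in the other library, 9.31-fold lower (8.88 to 9.76). Both genes rested on at least 1989 recovered reads in each library, so counting error is small beside these differences.

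Ccl5, which attracts T cells and monocytes, stood at 44.7 FPKM in f/f cells and at 9.3 FPKM in those labelled DKO, 4.81-fold lower (4.09 to 5.68). Ccl2, the main ligand of the monocyte receptor CCR2, stood at 18.1 and 4.15 FPKM, 4.37-fold lower (3.58 to 5.37). Its chromosomal neighbour Ccl7, another CCR2 ligand, stood at 7.1 and 5.79 FPKM, a ratio of 0.816 (0.656 to 1.02) whose interval includes 1. The neighbours Ccl2 and Ccl7 therefore differed to unequal extents between these libraries.

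Another 3 genes were low in both fibroblast libraries. Casp4, the mouse caspase-11 that responds to cytosolic lipopolysaccharide, stood at 1.93 and 2.54 FPKM, and Cxcl5 at 0.606 and 0.694 FPKM, each with a counting interval that includes 1. Cxcl1 stood at 1.06 FPKM from 29 reads in f/f and 0.11 FPKM from 4 reads in the library labelled DKO. The Cxcl1 difference was -0.89 on the log2(FPKM + 1) scale and was not called, and with a pseudocount of 0.1 it was -2.46 and past the 2-fold step.

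**Figure D1:**
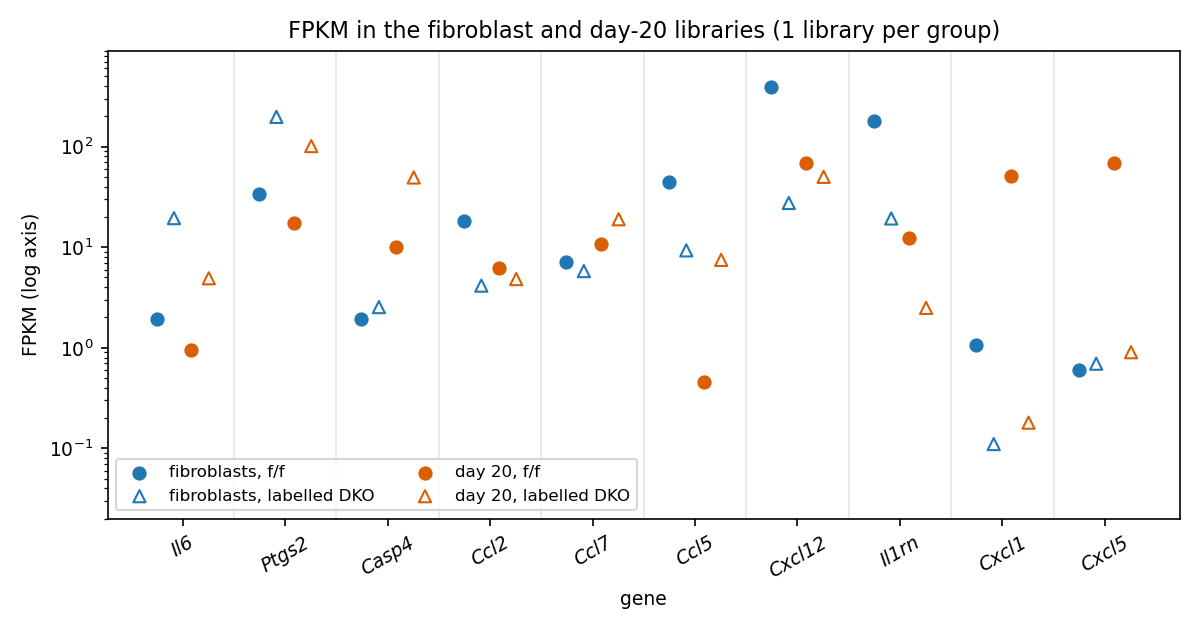
FPKM of the 10 genes (log axis) in the f/f and labelled-DKO libraries of fibroblasts and day-20 cells, 1 point per library with no error bar because each group has 1 library. Cxcl1 and Cxcl5 stand at 50.8 and 68.8 FPKM in the f/f day-20 library and at 1.06 FPKM or less in the other 3.

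At day 20 the pattern was led by the neutrophil attractants Cxcl1 and Cxcl5, which signal through CXCR2. Cxcl1 stood at 50.8 FPKM in f/f cells and 0.18 FPKM in those labelled DKO, from 1206 and 4 reads, 282-fold lower (110 to 1037). Cxcl5 stood at 68.8 and 0.903 FPKM, from 2849 and 35 reads, 76.2-fold lower (54.7 to 110). Across the 10 genes, 4 were called higher in the library labelled DKO and 3 lower, where 4.53% of all genes were higher and 6.51% lower, and 8.26% and 10.4% of those with a mean of at least 1 FPKM.

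Il6 and Ptgs2 were again higher in the library labelled DKO. Il6 stood at 0.956 and 4.91 FPKM, a ratio of 5.14 (3.35 to 8.17) from 26 and 125 reads. Ptgs2 stood at 17.3 and 101 FPKM, a ratio of 5.87 (5.58 to 6.17). Both were thus called higher in the labelled-DKO library at either stage.

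Casp4 and Ccl5 were the other genes called higher at day 20. Casp4 stood at 9.99 FPKM in f/f cells and 49.4 FPKM in those labelled DKO, a ratio of 4.94 (4.41 to 5.56). Ccl5 stood at 0.452 FPKM from 6 reads and 7.48 FPKM from 93 reads, a ratio of 16.6 (7.33 to 46.3), the opposite direction to that in fibroblasts.

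Il1rn was lower in the labelled-DKO library at day 20 as in fibroblasts, at 12.5 and 2.49 FPKM, a 5-fold difference (4.21 to 5.97). Cxcl12 differed far less than in fibroblasts, at 69 and 50.1 FPKM, 1.38-fold lower (1.34 to 1.41). Ccl7 stood at 10.8 and 19 FPKM, a ratio of 1.76 (1.49 to 2.1), and Ccl2 at 6.25 and 4.82 FPKM, a ratio of 0.772 (0.583 to 1.02). None of Cxcl12, Ccl7 and Ccl2 reached the 2-fold step.

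Epithelial markers differed in the same day-20 comparison. The 14 epithelial markers summed to 106 FPKM in the f/f library, with 7 of 14 at 1 FPKM or more. Most of that sum was Krt14 at 55.9 FPKM and Krt8 at 32 FPKM, while Cdh1 stood at 3.24 and Epcam at 1.77 FPKM. In the library labelled DKO they summed to 0.621 FPKM, with none at 1 FPKM and 8 of 14, Epcam and Cdh1 among them, listed at 0. In fibroblasts the same markers summed to 3.53 FPKM (f/f) and 0.957 FPKM (labelled DKO). The part of any epithelial cells in the Cxcl1 and Cxcl5 values was not tested, and in bulk RNA fewer cells of a type and less RNA per cell cannot be told apart.

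**Figure D2:**
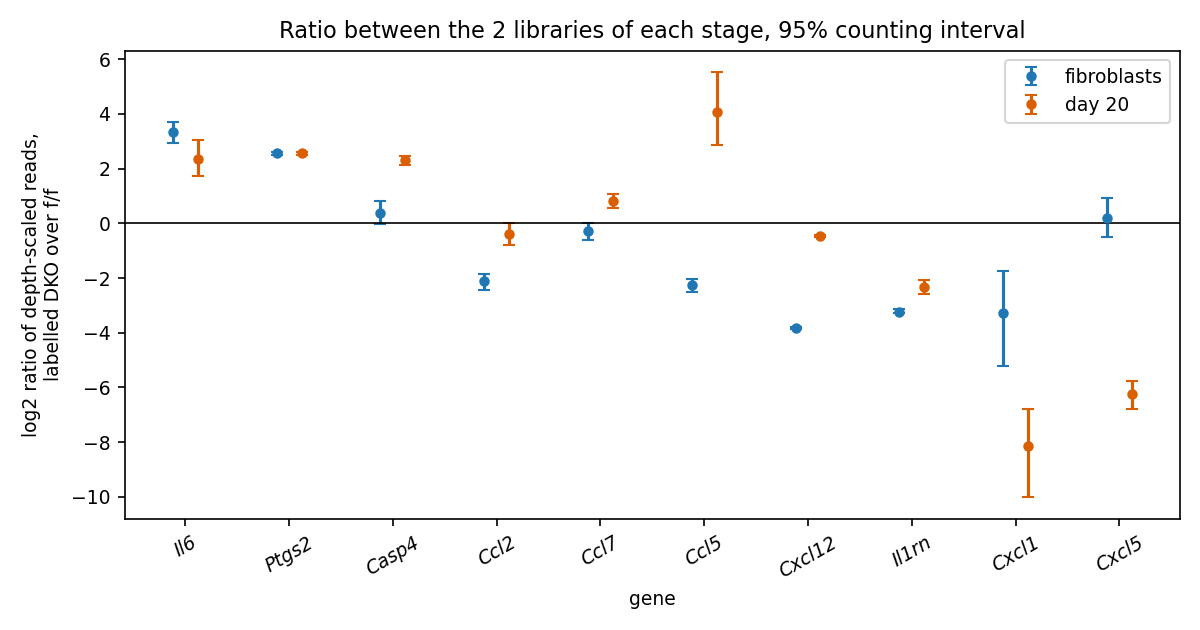
Log2 ratio of depth-scaled reads, the library labelled DKO over f/f, for each of the 10 genes in fibroblasts and at day 20, with bars for the 95% counting interval only. Il6 and Ptgs2 lie above 0 at both stages, Il1rn, Cxcl12 and Cxcl1 below 0 at both, and Ccl5 changes side from 4.81-fold lower to 16.6-fold higher.

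Read along the other axis, day-20 cells differed from fibroblasts by different shifts in f/f and in labelled-DKO cells. The delivered factors, the time in culture and the change of medium cannot be told apart in these shifts. In f/f, 3 of the 10 genes were called higher at day 20 than in fibroblasts and 4 lower, where 4.14% of all genes were higher and 3.05% lower, and 6.31% and 5.66% of those with a mean of at least 1 FPKM. In the libraries labelled DKO, 2 were called higher and 2 lower, where the shares were 2.33% and 1.95% of all genes and 4.08% and 3.63% of those with that mean. The f/f and labelled-DKO libraries used here also serve the genotype comparisons above, so these are the same values in another order.

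Cxcl1 was 48.1-fold higher (33.3 to 72.1) and Cxcl5 114-fold higher (78.9 to 170) at day 20 than in fibroblasts of the f/f background. In the libraries labelled DKO the ratios were 1.63 (0.304 to 8.77) for Cxcl1, from 4 reads on either side, and 1.3 (0.809 to 2.07) for Cxcl5, with intervals that include 1. The high level of both chemokines was seen in 1 library of the 4.

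Casp4 was higher at day 20 in both backgrounds, 5.17-fold (4.05 to 6.68) in f/f and 19.5-fold (16.4 to 23.3) in the libraries labelled DKO. Il1rn was lower at day 20 in both, 14.4-fold in f/f and 7.75-fold in the other. Ptgs2 differed by -0.92 and -0.96 on the log2(FPKM + 1) scale, under the step in both, and the 2 differences stood 0.04 apart.

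Ccl5 was 99-fold lower at day 20 in f/f (45.3 to 271), while its log2 difference in the libraries labelled DKO was -0.28. Cxcl12 was 5.63-fold lower in f/f and 1.82-fold higher (1.76 to 1.88) in the libraries labelled DKO. Ccl2 was 2.9-fold lower in f/f, a call lost at a 3-fold step, and differed by 0.18 on the log2 scale in the other background. Il6 was 3.97-fold lower in the libraries labelled DKO and differed by -0.59 in f/f. Ccl7 was 3.28-fold higher (2.73 to 3.95) in the libraries labelled DKO, a call also lost at 3-fold on the log2(FPKM + 1) scale, and differed by 0.54 in f/f.

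Cxcl1 and Cxcl5 lie in a cluster of CXC chemokine genes on chromosome 5, and the other genes of that stretch were read in the same libraries. In RefSeq order the chemokine genes are Cxcl5, Ppbp, Pf4, Cxcl3, Cxcl15, Cxcl1 and Cxcl2. In the f/f day-20 library Ppbp, the platelet basic protein gene, stood at 33.6 FPKM and Cxcl15 at 54.5 FPKM, while Cxcl3 stood at 1.88 FPKM, Cxcl2 at 1.29 FPKM and Pf4 at 0.068 FPKM. In the day-20 library labelled DKO, Ppbp stood at 0.356, Cxcl15 at 3.25 and Cxcl3 at 0.042 FPKM, with Cxcl2 and Pf4 listed at 0. Levels of 33.6 FPKM or more in the f/f day-20 library were thus shared by 4 of the 7 genes. At low levels Cxcl3 and Cxcl2 also passed the 2-fold step between these libraries, at -1.47 and -1.20 on the log2(FPKM + 1) scale. Pf4 did not. How reads shared by similar chemokine genes were assigned is not stated, and values of close relatives in the cluster are uncertain to that extent.

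**Figure D3:**
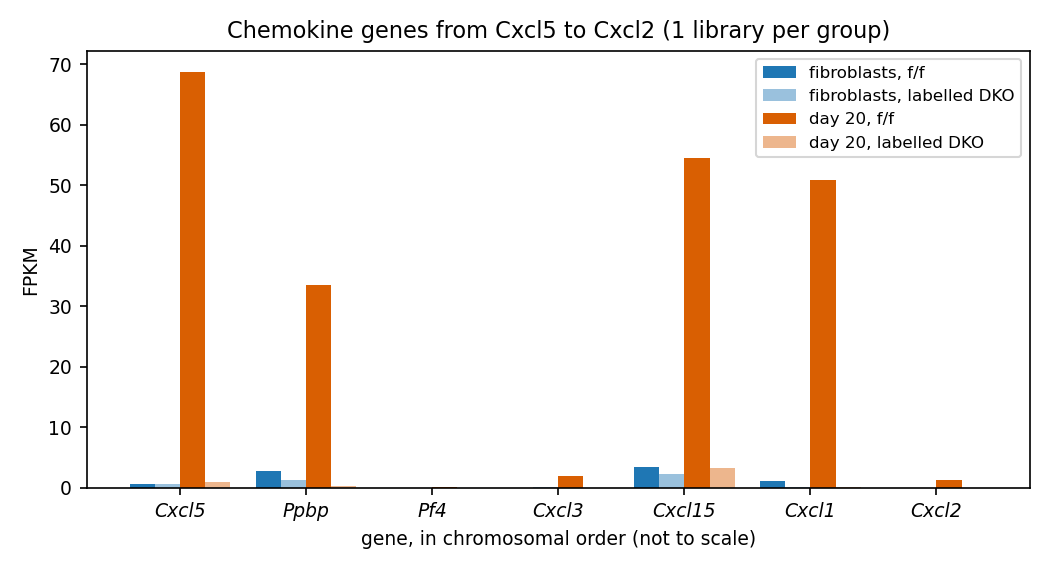
FPKM (linear axis from 0) of the 7 chemokine genes from Cxcl5 to Cxcl2, in chromosomal order and not to scale, in the 4 fibroblast and day-20 libraries, 1 bar per library. Cxcl5, Ppbp, Cxcl15 and Cxcl1 stand between 33.6 and 68.8 FPKM in the f/f day-20 library, and Pf4 at 0.068 FPKM.

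The Ccl2 and Ccl7 neighbours on chromosome 11 showed less. Ccl12 was listed at 0 in all 4 libraries, Ccl11 stood at 0.931 FPKM or less, and Ccl8 stood at 1.88 FPKM in the f/f day-20 library against 0.167 FPKM in the library labelled DKO. Beside Casp4, its relative Casp12 was also higher at day 20 in the library labelled DKO, at 53.4 FPKM against 23.5 FPKM in f/f, and Casp1 stood at 0.48 FPKM or less throughout these 4 libraries.

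The wider pathways were read from lists of related genes, members included. The counts below are of all listed genes, detected or not. They stand beside the shares over genes with a mean of at least 1 FPKM, 3.72% higher and 5.17% lower in fibroblasts and 8.26% and 10.4% at day 20. A count near these shares is no result about a list. Members and lists were chosen with earlier results of these data known, so a count above the shares is no test of a list either. Of 17 CXC and other chemokines none was higher and 8 were lower in the day-20 library labelled DKO, with a median log2 difference of -0.45 beside 0.00 over all genes. Cxcl14 stood at 31.9 FPKM in f/f cells and 0.211 FPKM in that library, and Cx3cl1 at 15.9 and 1.66 FPKM. In fibroblasts none was higher and 3 were lower, Cx3cl1 at 11.4 and 0.981 FPKM and Cxcl14 at 5.82 and 0.458 FPKM beside Cxcl12. Of 20 CC chemokines, 2 were lower in fibroblasts, and both are members. Ackr3, the scavenging receptor of Cxcl12, stood at 16.3 and 4.46 FPKM in fibroblasts and at 41.5 and 1.18 FPKM at day 20, lower in the library labelled DKO at both stages. Cxcr2, the receptor of Cxcl1 and Cxcl5, was the other called receptor of 22 and was higher in the day-20 library labelled DKO, at 22.5 against 10.6 FPKM.

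Around Il6, 3 of 17 genes of the IL-6 family and its receptors were higher in the labelled-DKO fibroblast library and 2 lower, and at day 20 1 was higher and 4 lower. Il6 was among the higher genes at both stages. Osmr, the oncostatin M receptor, stood at 35.1 and 76.1 FPKM in fibroblasts, and the family cytokine Clcf1 at 30.4 and 9.97 FPKM. At day 20 the receptor genes Il6ra and Il6st were lower in the library labelled DKO, at 3.37 against 0.485 FPKM and 409 against 185 FPKM, opposite in direction to Il6 itself. In fibroblasts neither was called, with Il6ra at 1.64 and 0.571 FPKM and Il6st, in the direction of Il6, at 112 and 218 FPKM.

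Around Ptgs2, 4 of 19 prostaglandin genes were higher in the labelled-DKO fibroblast library and 3 lower, and at day 20 2 were higher and 5 lower. Ptges and Ptgis, synthases that act after cyclooxygenase to make prostaglandin E and prostacyclin, were lower in the labelled-DKO library at both stages, where Ptgs2 was higher. Ptges stood at 2.3 and 0.466 FPKM in fibroblasts and at 25.7 and 0.445 FPKM at day 20. Ptgis stood at 6.54 and 0.164 FPKM in fibroblasts and at 13.2 and 0.122 FPKM at day 20. The other prostaglandin E synthase genes of the list were not called at either stage. Ptges2 stood at 5.69 and 7.2 FPKM in fibroblasts and at 7.84 and 7.11 FPKM at day 20. Ptges3 stood at 104 and 113 FPKM and at 72.6 and 125 FPKM. In ESC, Ptges was higher in DKO, by 1.98 ± 0.33 on the log2 scale (SE, limma, n = 2 per group, adjusted p = 0.0326). The receptors Ptgfr and Ptger4 were higher in the labelled-DKO fibroblast library, at 17.2 against 3.72 FPKM and 5.62 against 1.6 FPKM.

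Around Il1rn, 1 of 16 measured IL-1 family genes was higher and 3 lower in the labelled-DKO fibroblast library, and none higher and 5 lower at day 20. The receptor Il1r1 was the higher one, at 7.71 and 18.7 FPKM. At day 20 Il1rl1, the IL-33 receptor, stood at 84.3 FPKM in f/f cells and 1.73 FPKM in those labelled DKO, and its ligand Il33 at 3.93 and 0.0492 FPKM. Around Casp4, 4 of 17 inflammasome genes were higher at day 20 in the library labelled DKO and 1 lower. The lower one was Gsdmd, the pore-forming substrate of caspase-11, at 11.8 and 1.85 FPKM.

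Of 37 genes of the NF-kB pathway and its feedback, 3 were higher and 1 lower in the labelled-DKO fibroblast library, and 4 higher and none lower at day 20. In fibroblasts the higher ones were Cebpb at 24.4 and 84.6 FPKM, Cebpd at 10.2 and 33.3 FPKM and Bcl3 at 6.75 and 23.8 FPKM. Cebpb and Cebpd encode C/EBP factors, which are known activators of Il6. At day 20 Cebpb stood at 72.8 and 51.6 FPKM and Cebpd at 21.1 and 25.4 FPKM, neither called. The part of these factors in the Il6 values was not tested. The 4 called at day 20, of 35 detected at 1 FPKM or more, were Map3k14, Tnfaip3, Nfkbia and Nfkb2, with the inhibitor Nfkbia at 16.9 and 48 FPKM. Median log2 differences of the whole list were -0.04 and 0.00, beside 0.00 over all genes. Of 21 pattern recognition receptors, none was higher and 5 were lower in the labelled-DKO fibroblast library, including the RNA sensors Ddx58 at 23.5 and 9.64 FPKM and Ifih1 at 5.77 and 1.59 FPKM.

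In ESC and bodies, 4 of the 10 genes (Ccl2, Ccl7, Cxcl12 and Ptgs2) averaged 1 or more across the 8 libraries and entered the test. The other 6 were under 1 in every library. In the FPKM libraries Il6 stood between 0 and 0.512, Ccl5 between 0 and 0.35, Il1rn between 0.131 and 0.248, Casp4 between 0 and 0.227, Cxcl5 between 0.213 and 0.583 and Cxcl1 between 0.157 and 0.979. In the count libraries these 6 genes had from 0 to 21 reads. Replicate 1 of each group was deposited as counts and RPKM and replicate 2 as FPKM, so limma was fitted to log2(value + 1) with the kind of deposit as a block, and adjusted p-values are Benjamini-Hochberg values over 12466 genes.

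**Figure D4:**
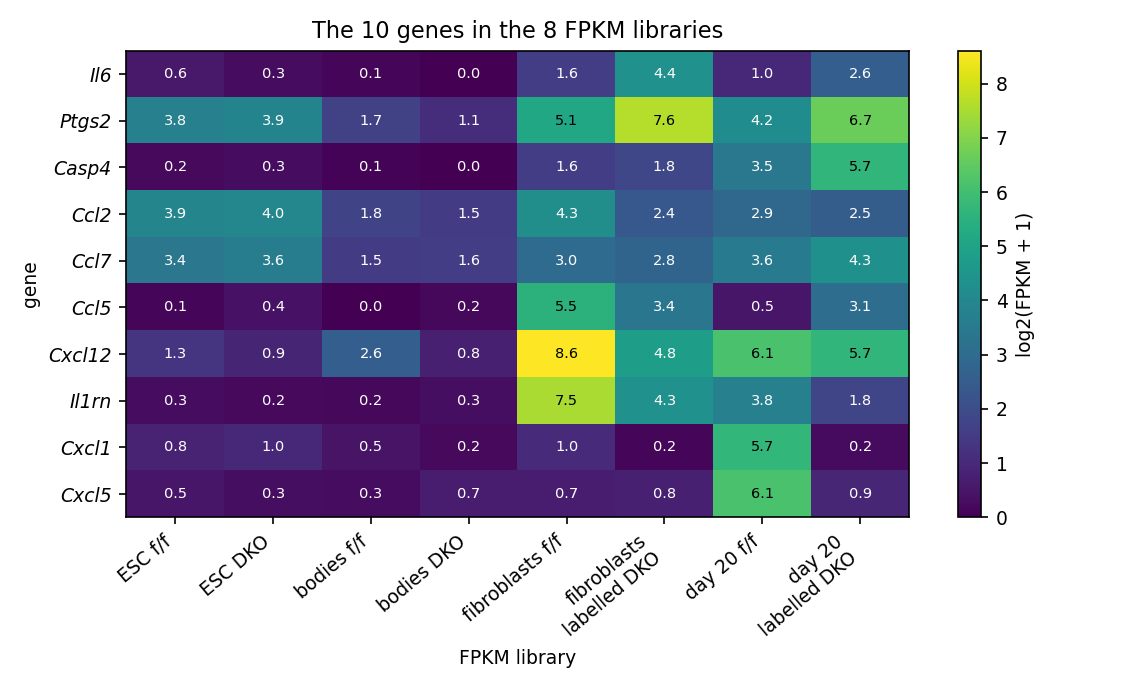
Log2(FPKM + 1) of the 10 genes (rows) in the 8 FPKM libraries (columns), 1 library per column, with the value printed in each cell. Il6, Ccl5, Il1rn, Casp4, Cxcl1 and Cxcl5 stay under 1 FPKM in the 4 ESC and body libraries, and Ccl2, Ccl7 and Ptgs2 are higher in ESC than in bodies.

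Cxcl12 was the member whose level depended on genotype in bodies. It stood at 5.104 RPKM and 4.96 FPKM in f/f bodies and at 0.64 RPKM and 0.695 FPKM in DKO bodies. Cxcl12 fell by 1.86 ± 0.18 (SE) on the log2 scale, with within-batch values of -1.90 and -1.81 (limma, n = 2 per group, adjusted p = 0.00932). It was the 1 member called of the 4 tested, where 4.44% of tested genes were called, 0.826% higher and 3.61% lower. Leaving out either f/f body library kept the direction and ended the call, at adjusted p = 0.0767 without replicate 1 and 0.0912 without replicate 2 (limma). The pseudocount of 1 makes the difference of such low values smaller: it was -2.74 with a pseudocount of 0.1, -2.88 by edgeR and -2.90 by DESeq2, all 3 called.

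In ESC, Cxcl12 stood at 1.178 RPKM and 1.52 FPKM in f/f and at 0.4019 RPKM and 0.856 FPKM in DKO. The log2 difference of -0.54 ± 0.18 (SE, n = 2 per group) did not pass the threshold (limma, adjusted p = 0.155). It was -1.06 with a pseudocount of 0.1 and -1.15 by edgeR, neither called, and -1.14 by DESeq2, which called it (adjusted p = 0.0143). None of the 4 members was called in ESC, where 4.24% of tested genes were, 1.57% higher and 2.67% lower. The genotype difference of Cxcl12 in bodies minus that in ESC was -1.32 ± 0.26 (SE), with an adjusted p of 0.133 by limma. Neither limma nor edgeR called any gene for that difference, 1704 genes had an unadjusted p under 0.05, and DESeq2 called 420, Cxcl12 and Ptgs2 among them.

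Marker sums of other cell types also differed between f/f and DKO bodies, to unequal extents. The 10 primitive streak and mesoderm markers summed to 154 RPKM and 170 FPKM in f/f bodies, with 10 of 10 at 1 or more in both. In DKO bodies they summed to 9.11 RPKM and 10.2 FPKM, with 2 and 4 of 10 at 1 or more. None was at 0 in any of these 4 libraries. The 14 epithelial markers summed to 923 RPKM and 1209 FPKM in f/f bodies and to 225 RPKM and 319 FPKM in DKO bodies. In each of these libraries 11 of 14 stood at 1 or more. The 10 endothelial markers summed to 17.8 RPKM and 13.6 FPKM in f/f bodies and to 16.8 RPKM and 6.98 FPKM in DKO bodies. Their part in the Cxcl12 difference was not tested.

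Differentiation of f/f cells went with a rise of Cxcl12 and falls of Ptgs2 and Ccl2. Ptgs2 stood at 5.659 RPKM and 12.5 FPKM in f/f ESC and at 1.332 RPKM and 2.25 FPKM in f/f bodies, and fell by 1.78 ± 0.23 (SE) on the log2 scale (limma, n = 2 per group, adjusted p = 0.0152). Ccl2 stood at 2.425 RPKM and 14.1 FPKM in ESC and at 0.7314 RPKM and 2.4 FPKM in bodies, and fell by 1.57 ± 0.34 (limma, n = 2 per group, adjusted p = 0.0362). Cxcl12 rose by 1.36 ± 0.18 (limma, n = 2 per group, adjusted p = 0.0161). These 3 calls were made where 12% of tested genes were called, 8.13% higher and 3.86% lower. Within batches the Ccl2 difference was -0.98 (RPKM) and -2.15 (FPKM), and its RPKM in ESC replicate 1 lay close to its FPKM in bodies.

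Ccl7 stood at 1.563 RPKM and 9.63 FPKM in f/f ESC and at 1.006 RPKM and 1.87 FPKM in f/f bodies. Its log2 difference of -1.12 ± 0.38 (SE, n = 2 per group) did not pass the threshold (limma, adjusted p = 0.104), and within batches it was -0.35 and -1.89. DESeq2 called it, at -1.67 (adjusted p = 0.0299). On reads, edgeR gave -2.39 for Ptgs2, -2.29 for Ccl2 and 1.84 for Cxcl12, all called. With no filter on low values the Ccl2 call was lost (limma, adjusted p = 0.0708). Leaving out any 1 of the 4 f/f libraries ended all 3 calls, with adjusted p from 0.0593 to 0.232 (limma) and no change of direction. Leaving out either DKO ESC library ended that of Ccl2, at adjusted p = 0.0589 and 0.0572 (limma).

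In DKO cells Ptgs2 was the 1 member called between ESC and bodies, where 0.826% of tested genes were called, 0.201% higher and 0.626% lower. It stood at 11.67 RPKM and 13.6 FPKM in DKO ESC and at 0.813 RPKM and 1.18 FPKM in DKO bodies, and fell by 2.77 ± 0.23 (SE) on the log2 scale (limma, n = 2 per group, adjusted p = 0.0173). Leaving out any of 5 libraries (both DKO ESC, both f/f bodies or DKO bodies replicate 2) ended the call, with adjusted p from 0.0649 to 0.158 (limma). Ccl2 stood at 3.832 RPKM and 14.7 FPKM in ESC and at 0.6432 RPKM and 1.84 FPKM in bodies, a log2 difference of -2.01 ± 0.34 (limma, n = 2 per group, adjusted p = 0.0631). On reads, edgeR gave -3.72 for Ptgs2 and -2.82 for Ccl2, both called (adjusted p = 0.0132 and 0.033). Ccl7 stood at 3.169 RPKM and 11.5 FPKM in ESC and at 0.811 RPKM and 1.95 FPKM in bodies (limma, adjusted p = 0.106). Cxcl12 differed by 0.05 ± 0.18 between the DKO stages (limma, adjusted p = 0.917).

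Between genotypes, the remaining tested members did not pass. In ESC the log2 differences of DKO minus f/f were 0.52 ± 0.23 for Ptgs2, 0.27 ± 0.34 for Ccl2 and 0.46 ± 0.38 for Ccl7 (limma, SE, n = 2 per group, adjusted p = 0.248, 0.692 and 0.537). In bodies they were -0.47 ± 0.23, -0.17 ± 0.34 and -0.05 ± 0.38 (limma, SE, n = 2 per group, adjusted p = 0.298, 0.82 and 0.951). The Ptgs2 difference seen in fibroblasts and at day 20 was therefore not detected at this number of libraries in ESC or bodies, and the stages were not tested against each other.

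Fibroblast markers were also higher in ESC, which grew on fibroblast feeders, than in bodies of the FPKM batch. The 16 fibroblast markers summed to 856 and 776 FPKM in f/f and DKO ESC and to 287 and 178 FPKM in bodies, with 16 of 16 at 1 FPKM or more in both ESC libraries. In the RPKM batch they summed to 256 and 279 in f/f and DKO ESC and to 165 and 314 in bodies. The sum was thus not lower in DKO bodies there. The number at 1 RPKM or more was 11 and 14 of 16 in f/f and DKO ESC and 10 and 9 of 16 in bodies. Within that batch Ptgs2 differed by -2.80 between the DKO stages. The 16 leukocyte markers summed to 62.2 and 144 FPKM in ESC and to 16.5 and 16.9 FPKM in bodies, and to 49.4 and 85.4 RPKM in ESC and 9.08 and 18.8 RPKM in bodies. Laptm5 alone made 43.1 and 125 FPKM of the ESC sums, and 3 of the 16 leukocyte markers reached 1 FPKM in each of the 4 FPKM libraries. The part of feeder or other cells in the Ptgs2, Ccl2 and Ccl7 values was not tested.

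**Figure D5:**
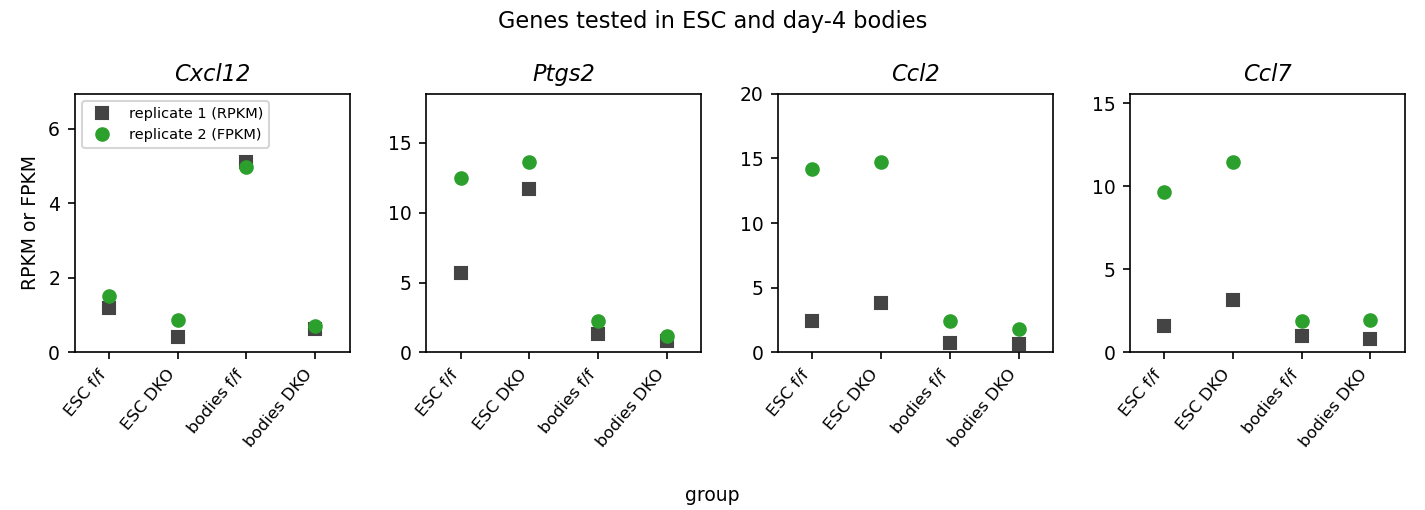
RPKM (replicate 1, squares) and FPKM (replicate 2, circles) of the 4 tested genes in ESC and bodies, 1 point per library on linear axes from 0. Cxcl12 stands at 5.104 RPKM and 4.96 FPKM in f/f bodies and under 1 in DKO bodies, and Ptgs2, Ccl2 and Ccl7 are lower in bodies than in ESC of the same batch.

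Over the 8 FPKM libraries some of the 10 genes paired by pattern, given here as Pearson correlations of log2(FPKM + 1) that share depth and stage and carry no test. Cxcl1 and Cxcl5 had r = 0.96, Il6 and Ptgs2 r = 0.92, Cxcl12 and Il1rn r = 0.91, and Ccl5 and Il1rn r = 0.86. Cxcl1 had r = -0.04 with Ptgs2 and -0.17 with Il6. The highest r with another member was 0.61 for Ccl2 and 0.68 between Ccl7 and Casp4. With 8 libraries from 4 stages, a few high libraries set each of these values.

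Among all genes reaching 5 FPKM, those most like Cxcl1 over the 8 libraries were Msln (r = 0.995), Itgbl1 (0.994) and Dpt (0.991). Msln encodes mesothelin, a surface protein of mesothelial cells, and Dpt the matrix protein dermatopontin. Most like Cxcl5 were Slurp1 (0.997), Aldh3a1 (0.993) and Bmp3 (0.992). Most like Il6 were Ssfa2 (0.990), the sterol synthesis gene Cyp51 (0.982) and the early-response nuclear receptor Nr4a3 (0.980), and most like Ptgs2 were Stam2 (0.986), Rpn2 (0.982) and Esyt1 (0.978). Most like Il1rn were the Wnt agonist Rspo2 (0.998), Kdm2a (0.990) and Erg (0.989), and most like Cxcl12 were Adamts6 (0.984), Rnf14 (0.980) and Serpinb9 (0.977). For Casp4 they were Adamts4 (0.993), Rassf5 (0.990) and Brinp3 (0.990), for Ccl5 Kirrel3 (0.989), Nqo2 (0.983) and Fam150a (0.979), and for Ccl7 Serpina3h (0.976), Dnajb9 (0.960) and the leukocyte adhesion gene Vcam1 (0.947). Ccl2 had the least close partners, D6Wsu163e (0.906), Cd97 (0.881) and Lyrm4 (0.875).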

How the data were processed

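RNA was measured as poly(A) libraries (Dynabeads and TruSeq, per the labels' protocols). For replicate 1 of ESC and bodies the authors deposited counts with RPKM for each RefSeq transcript, and for the other libraries FPKM by Entrez gene (per the file headers). Named in the submitters' processing notes are mm9, bedtools 2.16, SICER 1.1 and CASAVA 1.8.2. The aligner, annotation release and strand setting, not given in the sources used here, leave overlapping and near-identical genes uncertain. The other 24 samples (chromatin, input) were not analysed here.

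In the count files each gene was read from its best-covered transcript (Cxcl12 and Il1rn have 3). Reads behind each FPKM were recovered from depth and length: 90.9% to 92.5% of low genes in each library came out whole within 0.02 reads. For Cxcl5, Cxcl12 and Il1rn no transcript length from the count files gave whole reads, so the shortest length that did was taken. The recovered reads gave counting intervals and the count-model alternatives. Fibroblast and day-20 libraries, 1 per group, were compared by the difference of log2(FPKM + 1). ESC and bodies were tested with limma 3.58.1 in R 4.3.3 (eBayes with trend, two-sided) on log2(value + 1) in 1 fit of 8 libraries, with genes of mean at least 1, the batch as a block and a threshold of 0.05. That fit was tested on simulated data. edgeR 4.0.16 and DESeq2 1.42.0 on counts and recovered reads were alternatives, calling 615 and 1375 genes in ESC and 475 and 1268 in bodies for genotype. Libraries of the same batch deviated from their group means together, with correlations between groups of 0.864 to 0.954 across genes. Each batch has its own unit, and a difference between units recurs in every group. These correlations therefore cannot show whether the replicates are otherwise paired.

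All 10 genes are named in every comparison, with, from each pathway list, up to 4 other called genes of largest difference and, per gene, the 3 with the most similar pattern (names starting Gm, Rik, Mir or LOC skipped). The members and lists were chosen with earlier results of these data known. Nothing says that replicates are separate cultures. The p-values therefore measure the spread between these samples only, and that spread may be technical. Promoter windows are from RefSeq (GRCm38.p6), with 6 of the 10 genes matched.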

Additional observations from a re-analysis of the deposited data

Results flagged for a closer look

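Several differences had opposite signs in matched comparisons. In the first 5, each effect rests on 1 library per group and the difference was not tested. Ccl5 in the library labelled DKO against f/f moved from -2.15 on the log2 scale in fibroblasts to 2.55 at day 20, 4.70 apart. Cxcl5 went from 0.08 to -5.20, a difference of -5.27, and Ccl7 from -0.25 to 0.76, 1.02 apart. Between fibroblasts and day 20, Cxcl12 differed by -2.48 in f/f and 0.84 in the libraries labelled DKO, 3.32 apart, and Ccl2 by -1.40 and 0.18, 1.58 apart. The counting intervals of the ratios included 1 for Cxcl5 (0.702 to 1.9) and Ccl7 (0.656 to 1.02) in fibroblasts. That of Ccl2 in the libraries labelled DKO (0.878 to 1.53) did too, so these signs are uncertain.

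The other 2 lie in ESC and bodies, where the interaction was tested with limma. Ptgs2 in DKO against f/f was 0.52 in ESC and -0.47 in bodies, a difference of -0.99 (adjusted p = 0.27, n = 2 per group). Ccl2 was 0.27 and -0.17, a difference of -0.44 (limma, adjusted p = 0.756, n = 2 per group). Both signs held within each batch.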

How the results depend on the processing

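Limiting the share of genes past 2-fold to those with a mean of at least 1 FPKM gave 8.89% (fibroblasts, genotype), 18.7% (day 20, genotype), 12% (f/f, day 20) and 7.71% (DKO, day 20). Among the 10 members, a 3-fold step left 1 called higher at day 20 in the libraries labelled DKO, where the 2-fold step called 2. For ESC and bodies, in the order genotype in ESC, genotype in bodies, f/f stages, DKO stages and interaction, limma called 529, 553, 1495, 103 and 0 genes. DESeq2 called 1375, 1268, 2471, 886 and 420. With no filter on low values the genotype counts were 207 in ESC and 289 in bodies, and that of the DKO stages 1.

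Without the replicate block, which carries the shared batch, the counts were 0, 2, 0 and 1 for the first 4, and the members called fell to 0 in bodies, f/f stages and DKO stages. Cxcl12 in bodies then had an adjusted p of 0.0915 by limma, at the same -1.86. With no filter 2 members, not 3, were called between f/f stages. DESeq2 called 1 member in ESC (Cxcl12), 4 between f/f stages, 3 between DKO stages and 2 for the interaction. Between DKO stages 2 members were called with a pseudocount of 0.1, with quantile scaling or by edgeR, Ccl2 being the added one, and 0 with no filter.

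Leaving out each library in turn gave 0 to 743, 0 to 799, 0 to 1886, 0 to 111 and 0 to 0 genes, and 0 to 0, 0 to 1, 0 to 3, 0 to 1 and 0 to 0 members. In all, 10 uncalled values reversed in these omissions. In ESC, Ccl2 went to -0.22 and Ccl7 to -0.09 without f/f replicate 1, with ranges up to 0.77 and 1.02. In bodies Ccl2 went to 0.12 and Ccl7 to 0.41 without f/f replicate 1, and to 0.24 and 0.29 without DKO replicate 2, with ranges down to -0.57 and -0.52. Cxcl12 between DKO stages went to -0.12 without DKO ESC replicate 1 and to -0.03 without DKO bodies replicate 1, with a range up to 0.21. The interaction went to 0.05 for Ccl2 and 0.04 for Ccl7 without f/f ESC replicate 1, with ranges down to -0.94 and -1.08. The cause was not tested. Low read numbers limit Cxcl1 and Ccl5 (4 and 6 reads in their lowest fibroblast or day-20 libraries).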
